A study of Chlorocebus aethiops with 10 samples.

Results

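NF-kappaB is a family of transcription factors that switch on inflammatory, immune and survival genes. Its DNA-binding subunits, encoded by NFKB1, NFKB2, RELA, RELB and REL, pair with each other and are held in the cytoplasm by IkappaB proteins, among them the products of NFKBIA, NFKBIB and NFKBIE. When a receptor such as that for tumour necrosis factor is engaged, IkappaB kinases phosphorylate the IkappaB protein, a ubiquitin ligase marks it for destruction, and the freed dimer enters the nucleus. NFKBIA, NFKBIE and TNFAIP3 are themselves NF-kappaB target genes and close a negative feedback loop. In the liver the pathway is active in Kupffer cells and other immune cells as well as in hepatocytes.

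The members of this system, 10 genes chosen by symbol as the 5 subunits, 3 IkappaB genes, the deubiquitinase gene TNFAIP3 and the cytokine gene TNF, were examined among 16583 genes with a symbol. All 10 were measured, each by 1 array feature. The liver biopsies were those of 10 African green monkeys (Chlorocebus aethiops), obese adult females given a high-fat diet for 12 weeks. In the antimiR-33a/b group (n = 5), animals received a locked nucleic acid oligonucleotide against the microRNAs miR-33a and miR-33b, injected subcutaneously, first 20 mg/kg on day 0 and then 5 mg/kg weekly. In the vehicle group (n = 5), animals received 0.9% NaCl. Livers were biopsied at 8 weeks (day 57), and each array stands for a different animal; the labels give no genotype, batch or exact age.

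Values were deposited as logarithms centred on a middle value of each feature, and are given here as log2 units although the base is not stated. The arrays used for centring are not stated, and 0 need not be the middle of a feature over these animals. For NFKB1 the medians were -0.098 in antimiR-33a/b animals and -0.086 in vehicle animals. A value says nothing about how abundant the transcript is, so levels cannot be ranked between genes. If the values were natural logarithms, the same calls would stand and every difference would be larger: that of NFKBIA would be 0.58 in place of 0.40 on the log2 scale. In these whole-tissue biopsies, fewer cells of a type and less RNA per cell cannot be told apart.

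The comparison asked how the expression of NF-kappaB factors and their inhibitors differed in liver after inhibition of miR-33a and miR-33b. NFKBIA, which encodes IkappaB-alpha, rose 1.32-fold in antimiR-33a/b livers, and it was the 1 member of 10 that passed an adjusted p of 0.05 in limma. NFKBIE, which encodes IkappaB-epsilon, differed in the same direction by 0.20 and did not pass. None of the 5 subunits, NFKBIB, TNFAIP3 or TNF passed, and 7 of the 10 differences lay below 0. Over all genes, 3399 of 16583 (20.5%) passed, 2271 of them (13.7%) higher and 1128 (6.8%) lower in antimiR-33a/b livers, and 40.8% of all differences lay below 0. After quantile normalization the split was 1784 higher and 1504 lower. The members' count, 1 of 10, is to be read against that share of 20.5%. The median difference of the 10 members was -0.069, against 0.039 over all genes, and the antimiR-33a/b and vehicle values of each member overlapped, whereas 13.3% of all genes had no overlap.

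The balance between families of genes in each animal is given beside these values. For each animal, the median of 354 genes in 9 housekeeping families, such as ribosomal proteins and proteasome subunits, minus the median of 513 genes in 5 families that liver does not normally express, such as olfactory receptors, was taken as a contrast of expressed with silent families. It ranged from -0.086 to 0.22 in antimiR-33a/b animals and from -0.30 to -0.024 in vehicle animals (difference of the means 0.28, n = 5 each), given without a test because the families were chosen with earlier results of these data known. Vehicle animal 4 had the highest contrast of its group and the lowest array weight of all 10 animals, 0.486. With this family contrast as a covariate in limma, 393 of 16583 genes (2.37%) passed. The value under that covariate is therefore given for each member and for the pathway genes that passed and were named by rule. The contrast itself differed between the groups, so this fit cannot fully separate it from the treatment. What the contrast reflects was not tested.

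**Figure D1:**
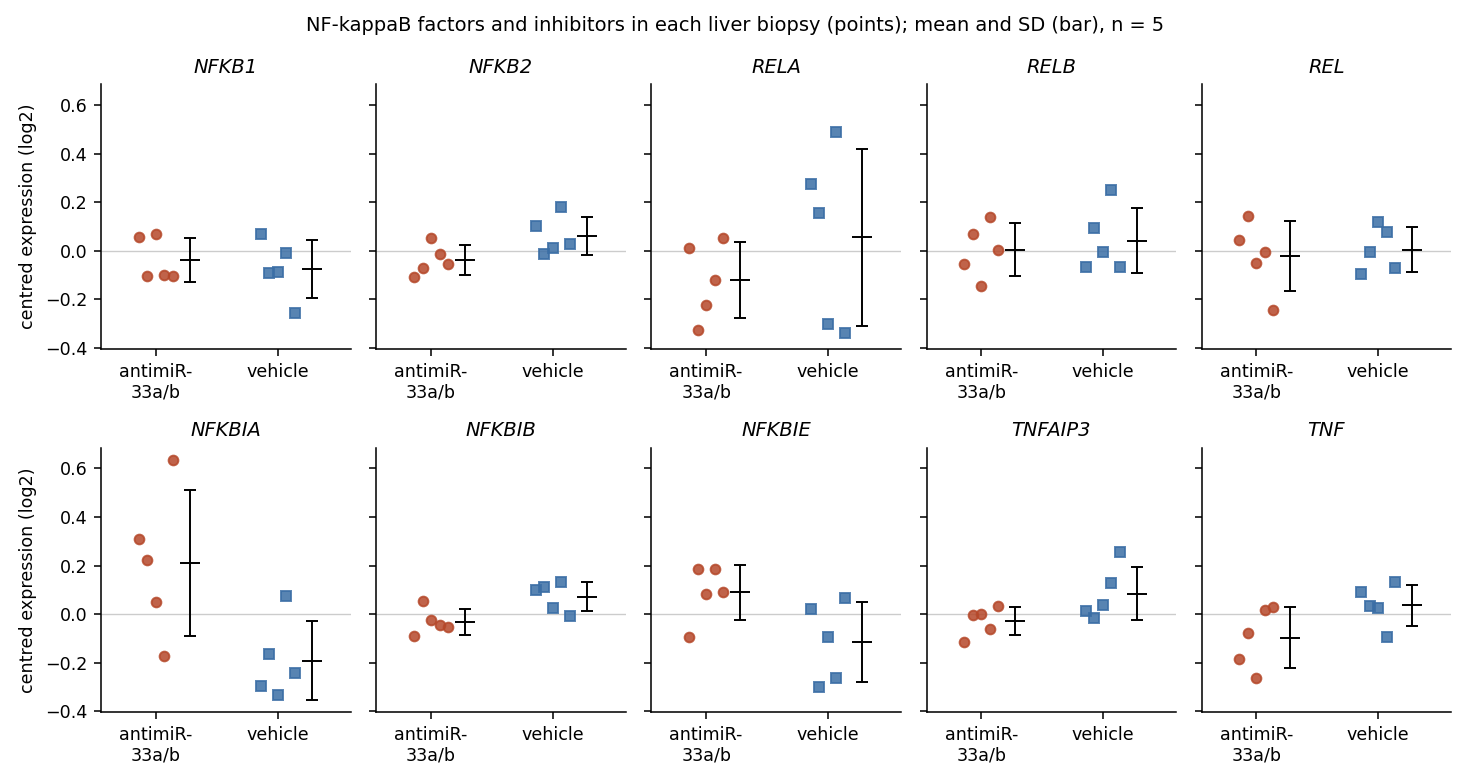
Centred expression (log2, vertical axis) of the 10 members in each antimiR-33a/b animal (circles) and each vehicle animal (squares), with the mean and SD of each group beside them (n = 5 each). NFKBIA had antimiR-33a/b values up to 0.64 and a vehicle maximum of 0.075; the groups overlapped in every panel, and RELA had the widest vehicle spread.

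NFKBIA encodes the IkappaB that is rapidly resynthesized after NF-kappaB activation and shuttles RELA-containing dimers out of the nucleus. Its values were 0.31, 0.22, 0.051, -0.17 and 0.64 in antimiR-33a/b animals 1 to 5, against -0.29, -0.17, -0.33, 0.075 and -0.24 in vehicle animals 1 to 5. Animals 1, 2 and 5 of the antimiR-33a/b group lay above every vehicle animal, and all 5 lay above the vehicle mean. Animal 4 of the antimiR-33a/b group lay within the vehicle range, just below vehicle animal 2. The mean was 0.21 ± 0.30 (SD, n = 5) in antimiR-33a/b livers and -0.19 ± 0.16 (SD, n = 5) in vehicle livers. The difference was 0.40 (SE 0.13, 95% confidence interval 0.13 to 0.68, limma adjusted p = 0.0414), larger in size than that of 95.5% of all genes. A two-sided exact permutation test over the animals gave p = 0.0397, against a smallest possible p of 0.0079.

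The NFKBIA call was lost on leaving out any 1 of 8 of the 10 animals. It was kept without antimiR-33a/b animal 4 (difference 0.50, limma adjusted p = 0.0170) and without vehicle animal 4 (0.47, adjusted p = 0.0205). Without antimiR-33a/b animal 1, 2, 3 or 5 the adjusted p was 0.0855, 0.0628, 0.0534 and 0.0788, and without vehicle animal 1, 2, 3 or 5 it was 0.0920, 0.0722, 0.0885 and 0.0701. The smallest of the 10 differences, 0.30, came without antimiR-33a/b animal 5, which had the highest value. The highest unadjusted limma p of the 10 fits was 0.0201, without vehicle animal 3. Without antimiR-33a/b animal 3 the difference was 0.44 and the unadjusted limma p 0.0069, against 0.40 and 0.0075 with all animals. The adjusted p depends on all genes too. Of these, 11.6% to 20.3% passed in the 8 fits that lost the NFKBIA call, against 20.5% with all animals. Quantile normalization (0.35, adjusted p = 0.105) and a shift of all arrays to 1 median (0.40, adjusted p = 0.0614) also ended the NFKBIA call, and 0 members then passed, where 19.8% and 23.4% of all genes did. Fitted beside the family contrast, NFKBIA differed by 0.30 (SE 0.21, adjusted p = 0.368). Its difference was above 0 in each of these fits.

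NFKBIE encodes an IkappaB that preferentially retains REL- and RELA-containing dimers. Its values were -0.093, 0.18, 0.085, 0.19 and 0.092 in antimiR-33a/b animals 1 to 5, against 0.022, -0.30, -0.095, -0.26 and 0.066 in vehicle animals 1 to 5. In the antimiR-33a/b group 4 of 5 animals lay above the highest vehicle animal, while animal 1 lay among the vehicle values. The means were 0.091 ± 0.11 in antimiR-33a/b livers and -0.11 ± 0.16 in vehicle livers (SD, n = 5 each), a difference of 0.20 (SE 0.084, interval 0.024 to 0.38). The unadjusted p in limma was 0.0290 and the adjusted p 0.0976, and the exact permutation p was 0.0397. Fitted beside the family contrast, the difference was 0.46 (SE 0.094, adjusted p = 0.0441), and NFKBIE was then the 1 member of 10 that passed, where 2.37% of all genes did. With array weights both NFKBIA (0.45, adjusted p = 0.0222) and NFKBIE (0.23, adjusted p = 0.0425) passed, 2 of 10 members, where 26.3% of all genes did.

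**Figure D2:**
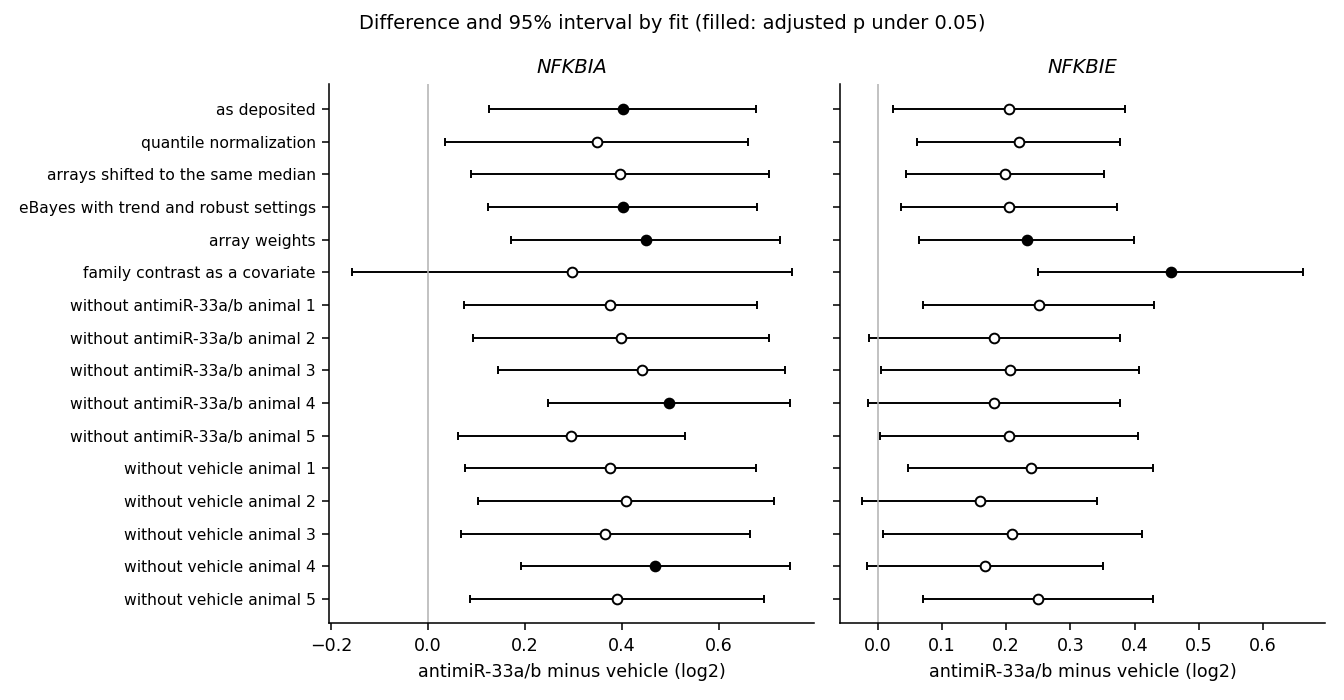
Difference between antimiR-33a/b and vehicle livers (log2, horizontal axis) with its 95% confidence interval for NFKBIA (left) and NFKBIE (right) in 16 fits; filled points had an adjusted p under 0.05. NFKBIA was filled in 5 fits and NFKBIE in 2, and all differences were above 0.

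NFKBIB encodes IkappaB-beta, which is degraded more slowly than IkappaB-alpha and is not rapidly resynthesized. Its values were -0.088, 0.054, -0.023, -0.046 and -0.051 in antimiR-33a/b animals 1 to 5, against 0.10, 0.11, 0.026, 0.13 and -0.0071 in vehicle animals 1 to 5. All 5 antimiR-33a/b animals lay below the vehicle mean, opposite to NFKBIA and NFKBIE, and 4 of them lay below the lowest vehicle animal. The difference was -0.10 (SE 0.054, interval -0.22 to 0.014, limma adjusted p = 0.193), with an exact permutation p of 0.0317. It was -0.11 beside the family contrast (adjusted p = 0.397). By exact permutation without adjustment, NFKBIA, NFKBIE and NFKBIB were the 3 members of 10 with p under 0.05, where 32.9% of all genes had one; adjusted over all genes, 0 genes passed this test.

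TNFAIP3 encodes A20, a ubiquitin-editing enzyme that shuts off signalling from the tumour necrosis factor receptor. Its values were -0.11, -0.0026, 0.0026, -0.060 and 0.034 in antimiR-33a/b animals, against 0.014, -0.014, 0.038, 0.13 and 0.26 in vehicle animals. Vehicle animals 3, 4 and 5 lay above every antimiR-33a/b animal, and the difference was -0.11 (SE 0.064, interval -0.25 to 0.025, limma adjusted p = 0.224). TNFAIP3 is known as a feedback target of NF-kappaB like NFKBIA, and its difference had the opposite sign. Fitted beside the family contrast it was -0.065 (adjusted p = 0.681).

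TNF encodes tumour necrosis factor, both an activator and a target of the pathway, made in liver chiefly by macrophages. Its values were -0.18, -0.079, -0.26, 0.015 and 0.030 in antimiR-33a/b animals, against 0.090, 0.033, 0.025, -0.092 and 0.13 in vehicle animals. In the antimiR-33a/b group animals 1 and 3 lay below every vehicle animal, and animals 2, 4 and 5 lay among the vehicle values. The difference was -0.13 (SE 0.071, interval -0.29 to 0.019, limma adjusted p = 0.193), and it was 0.059 (adjusted p = 0.667) beside the family contrast, so its direction depended on that fit.

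Among the subunits, NFKB2, whose p100 precursor is processed to p52 in the non-canonical branch, had values of -0.11, -0.072, 0.052, -0.012 and -0.054 in antimiR-33a/b animals, against 0.10, -0.012, 0.012, 0.18 and 0.029 in vehicle animals. In the antimiR-33a/b group, animals 1, 2 and 5 lay below all vehicle animals. The difference was -0.10 (SE 0.058, interval -0.23 to 0.025, limma adjusted p = 0.232), and -0.16 (adjusted p = 0.236) beside the family contrast. RELB, the usual partner of p52, had values between -0.14 and 0.14 in antimiR-33a/b animals and between -0.067 and 0.25 in vehicle animals. The RELB groups lay over each other (difference -0.037, SE 0.076, interval -0.20 to 0.13, limma adjusted p = 0.761), and beside the family contrast the difference was -0.079 (adjusted p = 0.690).

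RELA encodes p65, the main transactivating subunit of the canonical branch. Its values were 0.010, -0.32, -0.22, -0.12 and 0.053 in antimiR-33a/b animals, against 0.28, 0.15, -0.30, 0.49 and -0.34 in vehicle animals. The vehicle animals fell far apart, with animals 1, 2 and 4 above every antimiR-33a/b animal and animal 5 below all of them. The SD was 0.16 in antimiR-33a/b livers and 0.36 in vehicle livers, the widest spread of any member. The difference was -0.18 (SE 0.15, interval -0.49 to 0.14, limma adjusted p = 0.404), -0.068 without vehicle animal 4, and -0.51 (SE 0.21, adjusted p = 0.142) beside the family contrast. The interval included a difference as large as that of NFKBIA with the opposite sign.

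NFKB1, which encodes the p105 precursor of p50, had values of 0.055, -0.10, 0.071, -0.098 and -0.11 in antimiR-33a/b animals, against 0.068, -0.090, -0.086, -0.0073 and -0.26 in vehicle animals. REL, which encodes the c-Rel subunit prominent in lymphoid cells, had values of 0.045, 0.14, -0.049, -0.0044 and -0.24 in antimiR-33a/b animals, against -0.094, -0.0054, 0.12, 0.079 and -0.070 in vehicle animals. In both genes the groups covered much of the same range. The differences were 0.038 for NFKB1 (SE 0.070, interval -0.11 to 0.19, limma adjusted p = 0.738) and -0.027 for REL (SE 0.075, interval -0.19 to 0.14, adjusted p = 0.828). For NFKB1 the sign turned under quantile normalization (-0.017) and beside the family contrast (-0.10, adjusted p = 0.501), where REL differed by -0.069 (adjusted p = 0.735).

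**Figure D3:**
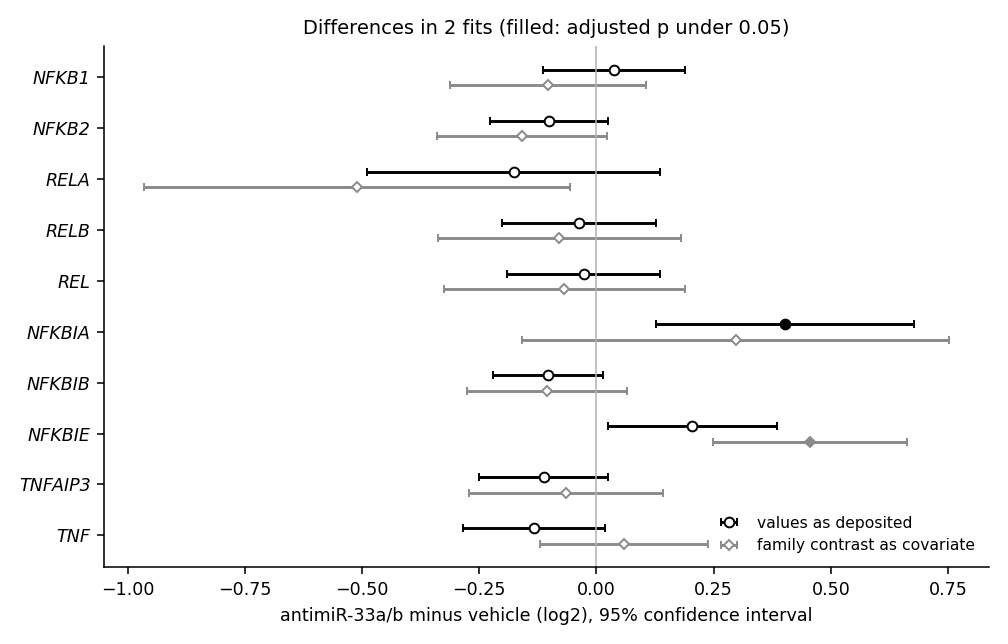
Difference between antimiR-33a/b and vehicle livers (log2, horizontal axis) with its 95% confidence interval for each member, from values as deposited (circles) and with the contrast of expressed against silent families as a covariate (diamonds); filled points had an adjusted p under 0.05. NFKBIA is filled in the first fit and NFKBIE in the second, and TNF and NFKB1 lie on opposite sides of 0 in the 2 fits.

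Whether members varied together between animals of the same group was examined on deviations from the group means. Among 45 pairs, Pearson's r ranged from -0.66 to 0.60, and 0 pairs passed an exact within-group permutation test after Benjamini-Hochberg adjustment (lowest adjusted p = 0.811), with 1 pair at an unadjusted p under 0.05. That pair was NFKB1 and TNF (r = -0.66, exact permutation p = 0.0442, Spearman's rho -0.66, exact permutation p = 0.0587, adjusted p = 0.811 and 0.829), with r = -0.93 without vehicle animals 1 and 5. NFKBIA and NFKBIE, both above the vehicle mean in all 5 antimiR-33a/b animals, had r = -0.45 (exact permutation p = 0.175, rho -0.49, exact permutation p = 0.130; adjusted p = 0.811 and 0.829), with r = -0.60 without antimiR-33a/b animals 4 and 5. NFKBIA was highest in antimiR-33a/b animal 5 and NFKBIE in antimiR-33a/b animal 4.

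The gene whose values over the 10 animals were most like those of NFKBIA was TSC22D3 (Pearson's r = 0.954 over 10 animals, 0.922 after removal of the group means). TSC22D3 encodes GILZ, a glucocorticoid-induced protein that can bind NF-kappaB. Its values were 0.24, 0.11, 0.059, -0.43 and 0.52 in antimiR-33a/b animals 1 to 5, against -0.54, -0.48, -0.77, 0.11 and -0.32 in vehicle animals 1 to 5. As for NFKBIA, antimiR-33a/b animal 5 was highest and animal 4 lowest of their group, and vehicle animal 4 was highest and vehicle animal 3 lowest of theirs. The TSC22D3 difference was 0.50 (SE 0.17, limma adjusted p = 0.0558), and 0.24 (adjusted p = 0.586) beside the family contrast. The next most alike were PPP4C, the catalytic subunit of protein phosphatase 4 (r = 0.940), ELMO3, an engulfment and motility adaptor (r = 0.938), PRKAA1, a catalytic AMPK subunit (r = 0.925), and RAB5C, an early endosome GTPase (r = 0.910). After removal of the group means, r was 0.896 for PPP4C, 0.888 for ELMO3, 0.863 for PRKAA1 and 0.938 for RAB5C. On that measure RAB5C lay above TSC22D3, and its difference between the groups was 0.072 (limma adjusted p = 0.439). The r values over 10 animals were picked as the highest among all genes. None of these r values was tested, and they say nothing of shared control.

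**Figure D4:**
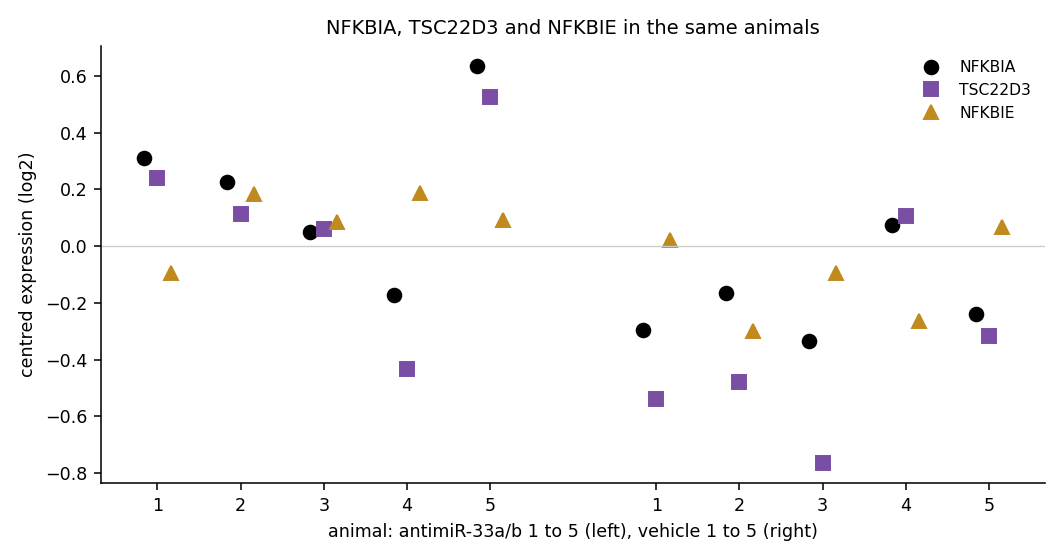
Centred expression (log2, vertical axis) of NFKBIA (circles), TSC22D3 (squares) and NFKBIE (triangles) in each antimiR-33a/b animal (left) and vehicle animal (right). NFKBIA and TSC22D3 were both highest in antimiR-33a/b animal 5 and lowest among the vehicle animals in animal 3, whereas NFKBIE did not follow them.

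Of 13 measured glucocorticoid receptor targets, TSC22D3 among them, 0 were called in limma, where 20.5% of all genes were. TSC22D3 was the 1 with an unadjusted p under 0.05, where 35.6% of all genes had one. The median difference of the list was -0.10. TSC22D3 passed with array weights and without vehicle animal 4 or antimiR-33a/b animal 4 (lowest adjusted p on leaving out 1 animal, 0.0141). Without antimiR-33a/b animal 3 the list had 1 call, DUSP1, and without antimiR-33a/b animal 4 it had 2, TSC22D3 and ERRFI1. FKBP5, a cochaperone of the receptor, differed by 0.26 (adjusted p = 0.197), ERRFI1, a feedback inhibitor of EGF receptor signalling, by 0.32 (adjusted p = 0.230), and PCK1, a gluconeogenic enzyme, by 0.12 (adjusted p = 0.227). Of 13 measured immediate early genes, 0 rose and 2 fell, a share of 15.4% against 20.5% of all genes. Both were AP-1 subunits: JUND fell by 0.37 (limma adjusted p = 0.0147) and FOSL1 by 0.22 (adjusted p = 0.0251). The FOSL1 call was lost on leaving out any 1 of 6 animals (adjusted p up to 0.0663). IER2 and EGR1 differed by 0.30 and 0.20 (adjusted p = 0.162 and 0.336), and IER2 passed without antimiR-33a/b animal 2 (adjusted p = 0.0431). Fitted beside the family contrast, JUND differed by -0.40 (adjusted p = 0.114) and FOSL1 by -0.088 (adjusted p = 0.486).

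The rest of the pathway was described by 6 further lists with 92 of 98 genes measured, of which 13 rose, 4 fell and 75 did not pass, a share of 18.5% against 20.5% of all genes. The genes that attach ubiquitin held 6 of the 13 rises: of 12 such genes, 6 rose and 0 fell, with a median difference of 0.23. BTRC and FBXW11 encode the beta-TrCP proteins that recognize phosphorylated IkappaB. BTRC had values of 0.092, 0.10, 0.12, 0.15 and 0.098 in antimiR-33a/b animals, against -0.28, -0.26, -0.17, -0.15 and -0.27 in vehicle animals, and rose by 0.34 (SE 0.052, limma adjusted p = 0.0021). No BTRC value of one group reached the range of the other, which held for 5 of these 12 genes and 13.3% of all genes. FBXW11 rose by 0.40 (SE 0.078, adjusted p = 0.0060), and RBX1, the RING subunit of the same ligase, by 0.30 (adjusted p = 0.0104). UBE2V1, part of the enzyme that builds signalling ubiquitin chains, rose by 0.27 (adjusted p = 0.0153). The other 2 that rose were its partner UBE2N (0.19, adjusted p = 0.0310) and the ligase adaptor SKP1 (0.30, adjusted p = 0.0397), while CUL1, the scaffold, differed by 0.044 (adjusted p = 0.679). With 1 animal left out, BTRC, FBXW11, RBX1 and UBE2V1 passed in all 10 fits and the list had 4 to 7 calls. The call for UBE2N was lost on leaving out any 1 of 4 animals (highest adjusted p 0.0834) and with trend and robust settings, and that for SKP1 on leaving out any 1 of 6 animals (highest adjusted p 0.101) and after quantile normalization. The list had 4 calls without vehicle animal 1 or 2 or antimiR-33a/b animal 3 or 4.

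**Figure D5:**
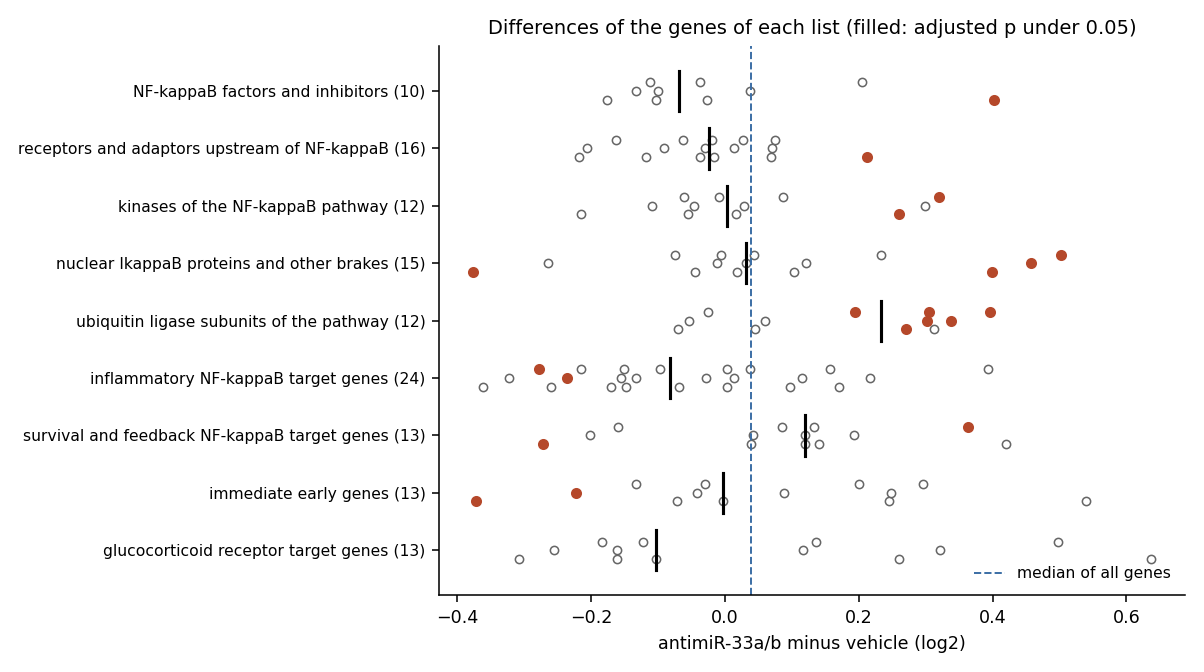
Difference between antimiR-33a/b and vehicle livers (log2, horizontal axis) of every measured gene of each list (number measured in brackets); filled points had an adjusted p under 0.05, short bars are list medians and the dashed line is the median of all genes, 0.039. The list of ubiquitin ligase subunits had 6 of 12 genes filled and a median of 0.23.

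Of 12 genes for kinases and their adaptor or regulatory subunits, 2 rose and 0 fell (16.7%, against 20.5% of all genes), with a median of 0.0036. CHUK, the IkappaB kinase alpha subunit, rose by 0.32 (SE 0.061, limma adjusted p = 0.0050), with values of 0.078, 0.014, 0.050, 0.015 and 0.10 in antimiR-33a/b animals, against -0.20, -0.26, -0.33, -0.14 and -0.41 in vehicle animals. CHUK thus had no overlap between the groups, which held for 2 of these 12 genes and 13.3% of all genes. IKBKB, the beta subunit, differed by 0.028 (adjusted p = 0.753). TAB2, an adaptor of the upstream kinase TAK1, rose by 0.26 (adjusted p = 0.0108). IKBKG, the regulatory subunit NEMO, differed by 0.30 (adjusted p = 0.163), and MAP3K14, the NIK kinase of the non-canonical branch, by -0.22 (adjusted p = 0.0515). MAP3K14 passed, lower in antimiR-33a/b livers, after quantile normalization, the shift of arrays, trend and robust settings and array weights, and on leaving out any 1 of 3 animals (lowest adjusted p 0.0299), so that 1 kinase fell in those fits. Of 16 receptors and adaptors, 1 rose and 0 fell (6.25%, against 20.5% of all genes), with a median of -0.025. IRAK1, a kinase of interleukin-1 and Toll-like receptor signalling, rose by 0.21 (limma adjusted p = 0.0347) and the other 15 did not pass. Leaving out any 1 of 6 animals ended the IRAK1 call (highest adjusted p 0.0880), as did quantile normalization. TNFRSF13C, the gene of the BAFF receptor of B cells, differed by -0.21 (adjusted p = 0.141). The interleukin-1 receptor partner IL1RAP differed by -0.16 (adjusted p = 0.278) and the tumour necrosis factor receptor gene TNFRSF1B by -0.091 (adjusted p = 0.306).

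Among 15 nuclear IkappaB proteins and other brakes, 3 rose and 1 fell (26.7%, against 20.5% of all genes), with a median of 0.031. NFKBID, which encodes the nuclear IkappaB-NS, fell by 0.38 (SE 0.074, limma adjusted p = 0.0059). Its values were -0.17, -0.11, -0.030, -0.11 and -0.27 in antimiR-33a/b animals, against 0.26, 0.18, 0.32, 0.030 and 0.39 in vehicle animals. They did not overlap, which held for 3 of these 15 genes and 13.3% of all genes. ITCH, RNF11 and TAX1BP1, which act together with A20, all rose: ITCH by 0.50 (SE 0.076, adjusted p = 0.0019), RNF11 by 0.40 (adjusted p = 0.0105) and TAX1BP1 by 0.46 (adjusted p = 0.0339). The TAX1BP1 call was lost on leaving out any 1 of 5 animals (highest adjusted p 0.0798), and with quantile normalization or the shift of arrays. Their partner TNFAIP3 differed in the other direction, as given above.

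Among 24 inflammatory target genes, 0 rose and 2 fell (8.33%, against 20.5% of all genes), with a median of -0.083. The T cell chemokine CCL5 fell by 0.28 (SE 0.076, limma adjusted p = 0.0234) and the cytokine IL1A by 0.24 (SE 0.075, adjusted p = 0.0413). These calls were lost on leaving out any 1 of 3 animals for CCL5 (adjusted p up to 0.0540) and any 1 of 6 for IL1A (up to 0.0950). CCL4, another chemokine, differed by -0.15 (adjusted p = 0.0574) and PTGS2, the inducible cyclooxygenase, by 0.22 (adjusted p = 0.0563). The counts for this list depended on the fit. After quantile normalization, and likewise after the shift of arrays, 2 genes rose (PTGS2 and the endothelial selectin gene SELE) and 3 fell (CCL4, CCL5 and IL1A). With array weights 1 rose (PTGS2) and 3 fell, and with trend and robust settings 1 rose (PTGS2) and 2 fell. With 1 animal left out the list had 0 calls without vehicle animal 3 or antimiR-33a/b animal 5. It had 1 call, lower, without vehicle animal 1 or antimiR-33a/b animal 1, 3 or 4. Without vehicle animal 4 it had 4, all lower. Without vehicle animal 5, 1 gene rose (PTGS2) and 1 fell (CCL5). Without antimiR-33a/b animal 2, 1 rose (the adhesion gene VCAM1) and 2 fell (CCL5 and IL1A). The 22 genes that did not pass as deposited ran from -0.36 for SAA2, an acute phase gene (adjusted p = 0.534), to 0.39 for VCAM1, an endothelial adhesion molecule (0.129). Among other known readouts of the pathway, named after their values were seen, the differences were -0.32 for CXCL10 (0.356), 0.16 for SELE (0.0901), 0.12 for CXCL8 (0.386), 0.013 for ICAM1 (0.924), 0.0031 for IL6 (0.984) and 0.0023 for CCL2 (0.984). Of 13 survival and feedback targets, 1 rose and 1 fell (15.4%, against 20.5% of all genes), with a median of 0.12. In this list 10 of the 13 differences lay above 0, against 59.2% of all genes. SOD2, the mitochondrial superoxide dismutase, rose by 0.36 (SE 0.097, limma adjusted p = 0.0206), with vehicle animal 4 high in its group. TRAF1, a signalling adaptor, fell by 0.27 (SE 0.064, adjusted p = 0.0122). BCL2L1, which blocks apoptosis, differed by 0.19 (adjusted p = 0.0766) and TAP1, a peptide transporter for antigen presentation, by -0.20 (adjusted p = 0.0793). Leaving out any 1 of 3 animals ended the SOD2 call (adjusted p up to 0.0527), as did quantile normalization, where TAP1 fell. Without vehicle animal 1 or 2 or antimiR-33a/b animal 3 the list had 1 call in place of 2.

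Fitted beside the family contrast, 0 of the 92 pathway genes passed in limma, where 2.37% of all genes did. Errors were larger in this fit: the SE of BTRC was 0.072, against 0.052 without the covariate. The differences were then 0.30 for BTRC (adjusted p = 0.0521), 0.36 for FBXW11 (0.0988), 0.38 for ITCH (0.0701), 0.23 for CHUK (0.117) and 0.20 for TAB2 (0.158). They were 0.24 for UBE2V1 (0.159), 0.16 for RBX1 (0.272), 0.16 for IRAK1 (0.301), 0.11 for RNF11 (0.469) and 0.13 for TAX1BP1 (0.678). Of the genes that fell, NFKBID differed by -0.27 (0.144), CCL5 by -0.28 (0.164), TRAF1 by -0.16 (0.249) and IL1A by -0.011 (0.942). The SOD2 difference was 0.15 (0.488). The adjusted p in brackets missed the threshold for each gene named, while BTRC, FBXW11, UBE2V1 and CCL5 had differences close to those without the covariate.

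Markers of cell types that a liver biopsy can hold were set beside these values. Their counts are to be read against all genes, of which 13.7% rose, 6.8% fell and 35.6% had an unadjusted p under 0.05. Of 11 Kupffer cell and macrophage markers 0 passed in limma, with 0 at an unadjusted p under 0.05, and their mean over the list ran from -0.27 to 0.19 in antimiR-33a/b animals and from -0.48 to 0.40 in vehicle animals. Of 7 neutrophil markers 0 passed, with 1 at an unadjusted p under 0.05 (list mean from -0.089 to 0.12 in antimiR-33a/b animals and from -0.10 to 0.064 in vehicle animals). Of 10 T and NK cell markers 1 rose and 2 fell (list mean from -0.12 to 0.049 in antimiR-33a/b animals and from -0.084 to 0.17 in vehicle animals). Of 6 B and plasma cell markers 2 rose (list mean from -0.12 to 0.12 in antimiR-33a/b animals and from -0.20 to 0.071 in vehicle animals). Among the 10 fits with 1 animal left out, the call was lost in 9 for CD247, 7 for GNLY, 8 for TNFRSF17, 7 for MZB1 and 0 for NKG7. Of 9 hepatocyte markers 5 rose and 0 fell (list mean -0.065 to 0.14 in antimiR-33a/b animals and -0.39 to -0.058 in vehicle animals). ALB, TF and AMBP kept their calls in every such fit, while TTR lost its call in 6 and AHSG in 5. Fitted beside the family contrast, each marker of any list that passed as deposited lost its call, where 2.37% of all genes passed. Of 9 sinusoidal endothelial markers 3 rose, and of 9 stellate cell and matrix markers 3 rose. With 1 animal left out, the call was lost in 2 fits for STAB1, 4 for STAB2 and 2 for TEK. It was lost in 1 for LRAT, 1 for RGS5 and 0 for TIMP1. Quantile normalization ended the calls of STAB1 and STAB2. The endothelial marker CLEC4M differed by -0.24 and passed only in some other fits, among them quantile normalization and the shift of arrays. Of 4 measured red cell markers 0 passed, with 1 at an unadjusted p under 0.05. Their median difference was 0.91 (list mean from -0.038 to 1.83 in antimiR-33a/b animals and from -1.14 to 0.45 in vehicle animals), and HBB, the beta-globin gene, differed by 1.25 (SE 0.43, limma adjusted p = 0.0551). HBB passed with array weights and without vehicle animal 4 or 5. Of 6 cholangiocyte markers 0 passed, with 1 at an unadjusted p under 0.05. Centring removed the levels that would show whether a marker was present, and the part of cell composition in the results for NFKBIA and the other members was not tested.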

How the data were processed

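Liver RNA of 10 animals was measured on 1-colour arrays, 1 per animal; per the labels' protocols, double-stranded cDNA from 1 µg of total RNA was labelled with Cy3. The deposited table holds 45033 features on a log scale, read here as log2, centred per feature by the authors; the normalization, log base and build are not given in the sources used. Depth does not apply to arrays: the number of animals limits precision, and signal over background is unknown. GEO's platform table gave 1 symbol for 18188 features, several for 0 and none for 26845; features of a gene were averaged, giving 16583 genes. Array medians ranged from -0.054 to 0.061, no 2 arrays were identical, and values were used as deposited.

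Each gene's antimiR-33a/b minus vehicle difference came from limma 3.58.1 (R 4.3.3; lmFit and eBayes without covariates), with p-values adjusted over all genes by Benjamini-Hochberg at a threshold of 0.05. An exact two-sided permutation over the 252 assignments of animals was run for each member. No library or batch was left out. Fits were checked on simulated data with independent normal noise for each gene. That check does not cover variation shared by many genes of an array, such as the family contrast. The members, the 18 gene lists (199 of 210 genes measured) and the family patterns were chosen with earlier results of these data known. Named genes are every member, up to 4 genes of smallest p in each pathway or comparator list (receptors, kinases, brakes, ligases, 2 target lists, immediate early genes, glucocorticoid targets), and the 5 genes most correlated with each called member; others named, among them CUL1, IKBKB, UBE2N and SKP1, were chosen after their values were seen. Alternatives were quantile normalization, a shift of arrays to 1 median, single features, trend and robust settings, array weights, permutation per gene, the family covariate, natural logs and each animal left out.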

Additional observations from a re-analysis of the deposited data

Results flagged for a closer look

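Among the 20 groups of 5 values of the 10 members, 0 held a sample far from the other 4 by Dixon's test at its 95% level. Over all named genes 92 such groups were examined and 3 held one, where chance marks about 1 in 20 groups. IRAK1 was low in vehicle animal 2 (-0.18, against -0.067 for the next lowest vehicle animal). SOD2 was high in vehicle animal 4 (0.059, against -0.27 for the next highest). IER2 was low in vehicle animal 3 (-0.41, against -0.022 for the next lowest).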

How the results depend on the processing

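Under 18 alternatives, 159 of 180 values for the 10 members kept their direction and their side of the threshold, 12 lost the call (each of them NFKBIA), 2 gained one (each of them NFKBIE) and 7 changed sign. Some alternatives could change little. Natural logs rescaled the differences and left each adjusted p as it was, and single features kept the differences because each member had 1 feature. Permutation per gene also kept them and passed 0 of all genes. The 159 is thus not a count of independent checks. The number of members called was 0 after quantile normalization, 0 after the shift of arrays to 1 median, 2 with array weights, 0 by permutation per gene and 0 to 1 when 1 animal was left out. With the family covariate it was again 1, NFKBIE in place of NFKBIA. The members whose sign changed were TNF (0.059 with the family covariate), NFKB1 (-0.017 after quantile normalization, -0.10 with the covariate, and -0.0076 to 0.073 with 1 animal left out), RELB (-0.072 to 0.014 with 1 animal left out) and REL (-0.069 to 0.028). None of these was called in any fit. Of the other named genes, TNFRSF13C (0.11) and IKBKG (-0.17) changed sign with the covariate. Over all genes 393 passed with the covariate, 0 by permutation per gene, where 5454 had an unadjusted p under 0.05 and the smallest possible p is 0.0079, and 1925 to 4117 with 1 animal left out (1925 without vehicle animal 1, 2030 without antimiR-33a/b animal 3, 2135 without vehicle animal 2, and 4117 without vehicle animal 4). Of the pathway genes 17 passed as deposited, 0 with the covariate, 0 by permutation and 11 to 22 with 1 animal left out (lowest without vehicle animal 1 and antimiR-33a/b animal 3). The cause of these changes was not tested. No paired analysis was possible because the labels give no numbers shared between the groups. With 5 animals per group, differences of about 0.1, the size seen for NFKBIB, TNFAIP3 and NFKB2, had intervals that included 0.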

Other observations

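Spreads between animals are given here for 4 genes induced by stress or inflammation, picked after their values were seen. FOS, an AP-1 subunit, averaged 0.78 ± 1.21 in antimiR-33a/b livers and 0.24 ± 0.56 in vehicle livers (SD, n = 5 each; limma adjusted p = 0.426). DUSP1, a phosphatase that turns off MAP kinases, averaged 0.17 ± 0.98 in antimiR-33a/b livers and -0.47 ± 0.50 in vehicle livers (adjusted p = 0.254). GADD45B, a stress-response gene, averaged 0.38 ± 0.71 in antimiR-33a/b livers and -0.043 ± 0.47 in vehicle livers (adjusted p = 0.336). SAA2, an acute phase gene, had an SD of 0.30 in antimiR-33a/b livers and 1.08 in vehicle livers, with a difference of -0.36 (adjusted p = 0.534). For comparison, the SD of the members ranged from 0.053 to 0.30 in antimiR-33a/b livers and from 0.059 to 0.36 in vehicle livers.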
